A study of Mus musculus with 16 samples.

Results

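The loci of the 3 RUNX genes (Runx1, Runx2, Runx3) and of Cbfb, the gene for their shared partner, were described through 112 of the 136630 nuclear ATAC-seq peaks of the series. A peak was a member where, among all protein-coding start sites of the GENCODE basic annotation within 100 kb of its midpoint, the nearest belonged to one of these 4 genes, whatever its level. Runx1 had 54 peaks, Runx2 and Runx3 had 25 each, and Cbfb had 8.

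RUNX proteins bind DNA through the runt domain, and CBFB, which does not itself contact DNA, binds that domain and strengthens its hold on DNA. RUNX1 is best known from blood formation, RUNX2 from bone and cartilage, and RUNX3 from T cells and sensory neurons, and all of them are also expressed in epithelia and in carcinomas. Each RUNX gene is transcribed from a pair of promoters, a distal upstream one and a proximal downstream one, which give proteins with different first residues.

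ATAC-seq, in which the transposase Tn5 cuts and tags open chromatin, was run on mKate2+ pancreatic ductal adenocarcinoma (PDAC) cells sorted from the pancreas, the liver or the lungs of mice, 60000 cells a library. The cells came from KC-shSmad4 tumours (Ptf1a-Cre, a Rosa26 reverse tetracycline transactivator linked to mKate2, and a doxycycline-inducible GFP-linked Smad4 hairpin at Col1a1, in a mixed C57BL/6J and 129 background), were transduced with Luciferase, and were transplanted into athymic nude (Foxn1nu) mice of 6 to 8 weeks, which lack T cells. Cells were placed in the pancreas (100000), in the spleen to seed the liver (400000, followed by splenectomy) or in the tail vein to seed the lungs (250000). All hosts were fed doxycycline. In the groups Panc-Smad4OFF (n = 3), Liv-Smad4OFF (n = 2) and Lung-Smad4OFF (n = 3) Smad4 stayed suppressed, and in Panc-Smad4ON (n = 3), Liv-Smad4ON (n = 2) and Lung-Smad4ON (n = 3) doxycycline was withdrawn at 4, 5 and 6 weeks, respectively, and Smad4 was restored for 14 days by the study's description, whereas the lung columns of the deposited table carry d15 in their names. Both metastatic sites were therefore seeded by injection, Cre acted in the pancreatic lineage of the donor, and the sources used here do not give the hairpin or the donor line of each library. Each library was 1 mouse, and every liver value rests on 2 libraries per state.

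The 16 libraries held 22.5 to 37.5 M nuclear reads in peaks, with a median of 36 to 76 reads per peak and the lowest medians, 40 and 36, in Liv-Smad4OFF. The start-site peaks of 6 of 6 epithelial markers were present, with summed counts of 49863 and 50018 in Liv-Smad4OFF, 20919 to 32520 in Lung-Smad4OFF and 20476 to 22699 in Panc-Smad4OFF. Among 9 leukocyte markers, 6 had no start-site peak, including Ptprc, Spi1, Lyz2, Itgam and Cd3e. The other 3 summed to 409.7 and 459.8 in Liv-Smad4OFF, 856 to 1325 in Lung-Smad4OFF and 674 to 902 in Panc-Smad4OFF. Fibroblast markers summed to 814 and 838, 854 to 1596 and 1871 to 2582 in the same order, and endothelial markers to 94.7 and 99.97, 240.2 to 856 and 219 to 251. Within Lung-Smad4OFF, library 1 held the highest leukocyte (1325), fibroblast (1596) and endothelial (856) sums and the lowest epithelial sum (20919). The endothelial sums of lung libraries 2 and 3 were 240.2 and 244.7. Acinar markers, of which Cpa1, Ctrb1 and Ptf1a had no start-site peak, summed to 281 and 301, 373 to 491 and 500.1 to 604. Hepatocyte markers went the other way, at 1009 and 1172, 383 to 543 and 320.3 to 406, although Alb, Apoa1 and Cyp2e1 had no start-site peak. Of 5 lung epithelium markers only Foxj1 had a start-site peak, at 810 and 985, 639 to 687 and 660 to 681. Runx1 and Runx3 are also active in leukocytes and Runx2 in mesenchymal cells. With Smad4 off, the sums of all these lists set the liver apart from both other organs. Lung and pancreas ranges overlapped for all lists except the fibroblast and acinar markers, and sums also differed between lung libraries. Much of what follows moved with the organ too, and the part of these cell types in it was not tested.

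The upstream promoters of the 3 RUNX genes share a sequence feature that the choice of peaks did not use. In RefSeq promoter sequence (GRCm38.p6, 250 bases before to 50 after each start), each holds a pair of the core letters bound by RUNX proteins, TGTGGT read on the other strand as ACCACA, spaced as ACCACANNACCACA. The stretches are shown 5′ to 3′ along the gene with the pair in capitals, at chr16:92826025-92826054 (minus strand) for Runx1, chr17:44814583-44814612 (minus strand) for Runx2 and chr4:135120503-135120532 (plus strand) for Runx3.

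Runx1 upstream promoter: cataaacaACCACAGAACCACAagttgggt

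Runx2 upstream promoter: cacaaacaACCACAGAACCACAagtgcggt

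Runx3 upstream promoter: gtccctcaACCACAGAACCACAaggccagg

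The pair began 28 bases after the RefSeq start of Runx1, 23 after that of Runx2 and 134 before that of Runx3. These letters, which were chosen after the sequences were read, stood on either strand in 7 of 32851 RefSeq promoters (0.0213%), the others being Gm12236, Gm15462, Gm16225 and Olfr24. A single TGTGGT stood in 5506 (16.8%). The downstream promoter sequences of Runx1 and Runx3 and the promoter of Cbfb held no TGTGGT, and for the downstream promoter of Runx2 the table used here had no entry.

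Away from promoters, the sequences below are the central 200 bases (GRCm38, plus strand) of the peaks with the smallest p for liver against lungs that hold TGTGGT or ACCACA, in capitals. The last one holds no such match and is shown because it was the only peak that passed the test on Smad4 restoration within an organ. Its TGAATCA is in capitals, a match to TGANTCA, the letters searched for AP-1, in which N is any base. TGANTCA also stood, left in lower case, in the Runx1 windows at 37.3 kb and 80.4 kb (1 match each) and in the Cbfb window at 4.5 kb (2 matches). A match describes letters in these windows and is not evidence that a factor was bound there.

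Runx1, upstream promoter +37.3 kb, intron, chr16:92788716-92788915: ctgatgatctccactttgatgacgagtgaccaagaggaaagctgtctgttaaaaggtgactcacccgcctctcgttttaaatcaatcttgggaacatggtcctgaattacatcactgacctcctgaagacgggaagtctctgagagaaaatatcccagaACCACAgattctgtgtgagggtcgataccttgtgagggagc

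Runx1, 80.4 kb before the upstream promoter, intergenic, chr16:92906459-92906658: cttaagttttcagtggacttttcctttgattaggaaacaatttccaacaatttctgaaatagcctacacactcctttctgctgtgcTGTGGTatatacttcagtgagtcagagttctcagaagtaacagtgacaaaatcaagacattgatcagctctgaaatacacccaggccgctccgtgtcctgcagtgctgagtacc

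Runx2, downstream promoter +17.6 kb, intronic centre of a peak that overlaps an exon, chr17:44717891-44718090: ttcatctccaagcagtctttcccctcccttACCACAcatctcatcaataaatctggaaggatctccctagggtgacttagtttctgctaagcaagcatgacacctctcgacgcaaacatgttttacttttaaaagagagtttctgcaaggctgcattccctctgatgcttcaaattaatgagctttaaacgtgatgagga

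Cbfb, 10.8 kb before the promoter, intergenic, chr8:105159768-105159967: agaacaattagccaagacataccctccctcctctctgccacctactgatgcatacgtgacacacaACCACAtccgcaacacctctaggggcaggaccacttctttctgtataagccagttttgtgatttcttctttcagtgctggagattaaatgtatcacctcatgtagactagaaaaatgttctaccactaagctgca

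Cbfb, promoter +4.5 kb, intron, chr8:105175372-105175571: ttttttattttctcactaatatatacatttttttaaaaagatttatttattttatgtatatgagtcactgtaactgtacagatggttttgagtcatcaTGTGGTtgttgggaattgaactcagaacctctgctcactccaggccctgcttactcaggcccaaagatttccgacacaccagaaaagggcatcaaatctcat

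Runx2, downstream promoter +68.0 kb, intron, chr17:44667518-44667717: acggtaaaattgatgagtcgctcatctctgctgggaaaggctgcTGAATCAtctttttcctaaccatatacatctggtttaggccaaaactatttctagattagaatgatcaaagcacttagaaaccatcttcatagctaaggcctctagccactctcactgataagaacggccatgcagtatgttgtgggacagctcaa

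The promoters are described first, in normalised read counts (reads in a peak divided by the size factor of the library). Differences are log2 fold changes ± SE from limma, and one was called where it reached 0.58 in either direction with an adjusted p, over all nuclear peaks, of 0.1 or less. Coordinates of peaks are on mm10.

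The upstream promoter of Runx1 (chr16:92822305-92826635) was lower in the liver than in the lungs. With Smad4 off it held 1151 and 1055 normalised counts in the 2 liver libraries, 1916, 1556 and 1651 in the lungs and 1556, 1671 and 1535 in the pancreas. Both liver libraries lay below all 6 others. The difference was -0.63 ± 0.10 against the lungs (adjusted p = 0.000207) and -0.53 ± 0.10 against the pancreas (adjusted p = 0.000429), the latter short of the fold threshold. The first fell short of it too without Liv-Smad4OFF replicate 2 (-0.56), without Lung-Smad4OFF replicate 1 (-0.54) and after GC correction (-0.57). In sorted bulk cells, fewer cells with an open promoter and a less open promoter in each cell cannot be told apart, here and below.

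The downstream promoter of Runx1 (chr16:92694465-92699031) did not share this pattern. It held 3358 and 3249 normalised counts in Liv-Smad4OFF against 2409.8, 2702 and 2373 in Lung-Smad4OFF and 2709, 2483 and 2595 in Panc-Smad4OFF. The liver libraries lay above the others, by 0.41 ± 0.10 against the lungs (adjusted p = 0.00333), under the fold threshold. This sign depends on the normalisation, since quantile normalisation gave -0.011 against the lungs and -0.089 against the pancreas.

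At Runx2 the organs were ordered pancreas, lungs, liver at the upstream promoter (chr17:44813309-44815576). It held 427, 439 and 519 normalised counts in Panc-Smad4OFF, 168, 88.0 and 196 in Lung-Smad4OFF and 61.7 and 47.4 in Liv-Smad4OFF. No library of one organ reached the range of another. All 3 differences were called: -3.06 ± 0.47 for liver against pancreas (adjusted p = 8.82e-05), -1.68 ± 0.42 for lungs against pancreas (adjusted p = 0.0158) and -1.39 ± 0.47 for liver against lungs (adjusted p = 0.0228). The last was not called without Liv-Smad4OFF replicate 2 (-1.20). The downstream promoter of Runx2 (chr17:44733590-44739938), which was broadly open, held 2856 and 2203 in Liv-Smad4OFF, 2940.0, 2856 and 2661 in Lung-Smad4OFF and 2977, 2594 and 2719 in Panc-Smad4OFF. Its ranges overlapped, and liver against lungs gave -0.17 ± 0.10 (95% interval -0.36 to 0.03, adjusted p = 0.171).

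Runx3 was lower in the liver at both promoters. The upstream one (chr4:135119895-135120974) held 332, 310.0 and 345 normalised counts in Panc-Smad4OFF, 259.6, 27.2 and 144 in Lung-Smad4OFF and 44.4 and 20.9 in Liv-Smad4OFF. The pancreas lay above both other organs, but lung library 2 fell inside the liver range, so the called difference of -1.69 ± 0.69 between liver and lungs (adjusted p = 0.0513) was not larger than the spread among the lung libraries. Liver against pancreas gave -3.39 ± 0.69 (adjusted p = 0.000708), and lungs against pancreas -1.69 ± 0.61 (adjusted p = 0.0826). Without Lung-Smad4OFF replicate 2 the difference was -2.62 for liver against lungs and -0.76, no longer called, for lungs against pancreas. Liver against lungs was also not called without Liv-Smad4OFF replicate 2 (-1.17), Lung-Smad4OFF replicate 1 (-1.02) or Lung-Smad4OFF replicate 3 (-1.44), nor lungs against pancreas without any 1 pancreas library with Smad4 off (-1.73 to -1.66) or with edgeR (-1.23) or DESeq2 (-1.20). The downstream promoter (chr4:135152067-135154384) held 179 and 177 in Liv-Smad4OFF, 602, 471 and 562 in Lung-Smad4OFF and 643, 550.3 and 406 in Panc-Smad4OFF. Here both liver libraries lay far below all others, by -1.60 ± 0.24 against the lungs (adjusted p = 0.000142) and -1.55 ± 0.24 against the pancreas (adjusted p = 9.71e-05), whereas lungs against pancreas gave 0.05 ± 0.21.

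The single promoter peak of Cbfb (chr8:105169959-105172191) held 1852 and 1938 in Liv-Smad4OFF, 1256, 1516 and 1358 in Lung-Smad4OFF and 1597, 1507 and 1475 in Panc-Smad4OFF. The liver libraries lay above the others by 0.47 ± 0.12 against the lungs (adjusted p = 0.00427) and 0.31 ± 0.12 against the pancreas (adjusted p = 0.0298), both under the fold threshold. Quantile normalisation turned the second to -0.092. None of the 7 promoter peaks was called higher in the liver than in another organ.

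**Figure D1:**
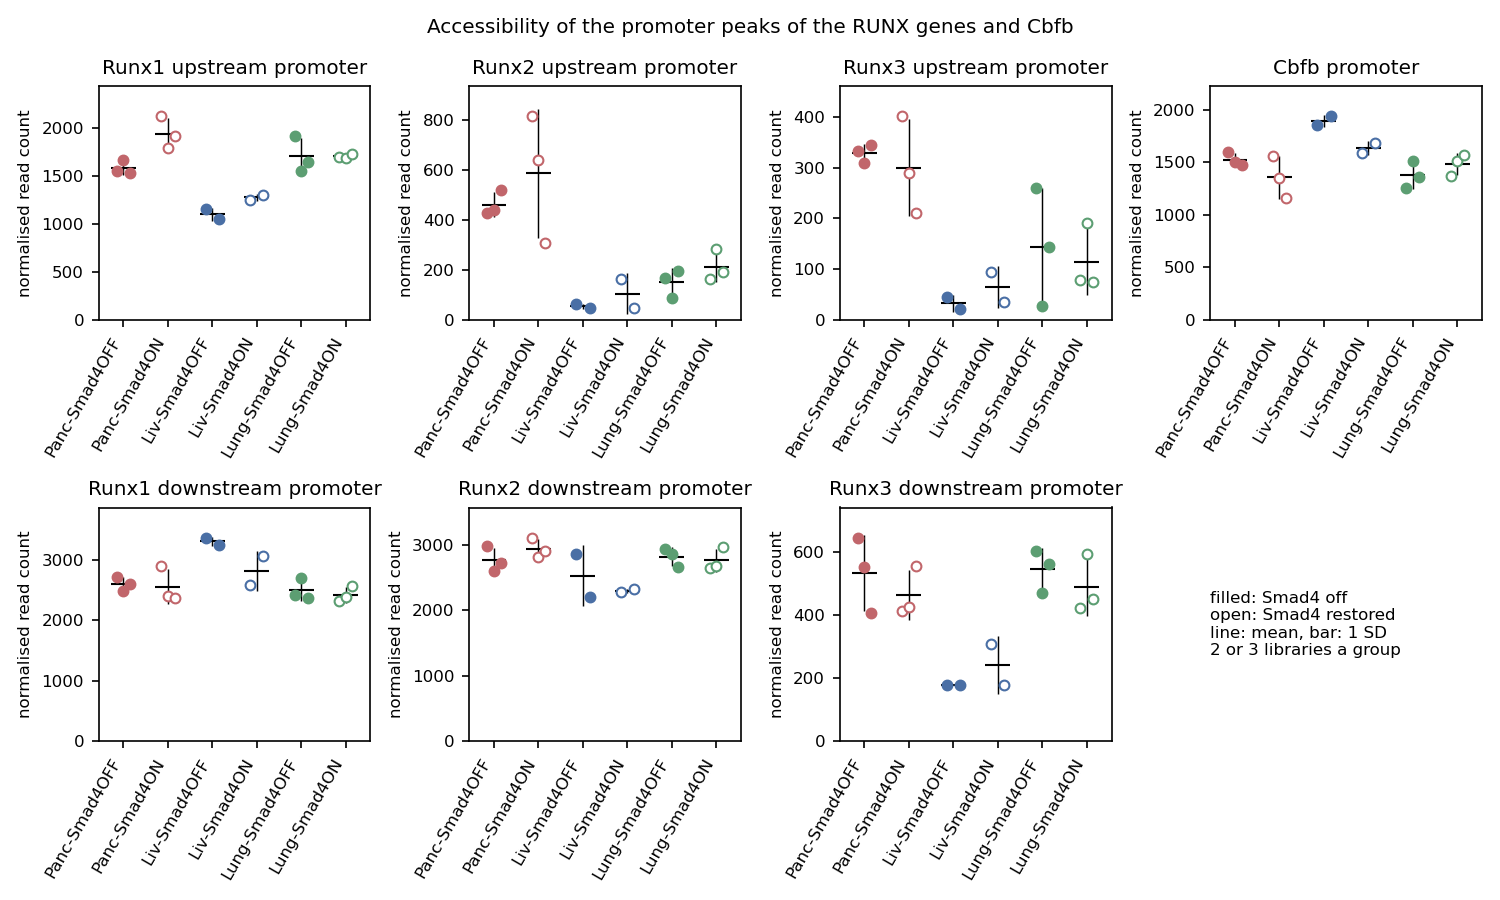
Normalised read count (y axis) at the 7 promoter peaks in the 6 groups (x axis), with 1 point per library, the mean as a line and 1 SD as a bar. With Smad4 off, the liver points (blue) lie lowest at the upstream promoters of Runx1 and Runx2 and at the downstream promoter of Runx3. In that state they lie highest at the downstream promoter of Runx1 and at Cbfb.

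Across all 6 groups, the order of mean levels at the upstream promoter of Runx1 ran from 1945 ± 167 (SD) in Panc-Smad4ON through 1708 ± 186 in Lung-Smad4OFF, 1706 ± 22.2 in Lung-Smad4ON and 1588 ± 73.3 in Panc-Smad4OFF to 1280.2 ± 38.1 in Liv-Smad4ON and 1103 ± 68.4 in Liv-Smad4OFF. The ranges of the first 3 groups overlapped between neighbours, and from Lung-Smad4ON downwards no neighbours overlapped. At the upstream promoter of Runx2 the gap between neighbours lay between Panc-Smad4OFF (461 ± 49.9) and Lung-Smad4ON (212 ± 61.4), and all other neighbours overlapped. At the downstream promoter of Runx3 it lay between Panc-Smad4ON (464 ± 79.3) and Liv-Smad4ON (242 ± 91.6). At the downstream promoter of Runx1 and at Cbfb only Liv-Smad4OFF (3304 ± 77.2 and 1895 ± 60.5) stood apart from its neighbour. At the upstream promoter of Runx3 and the downstream promoter of Runx2 all neighbours in the order overlapped.

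Since a pair of promoters lies in the same library, a single scaling factor per library largely cancels in the ratio of upstream to downstream counts. Quantile normalisation can change strong and weak peaks by different amounts, which does not cancel, and the ratio was not computed under it. The peaks also differ in width, so the ratio is compared between organs only. With Smad4 off, the log2 ratio for Runx1 was -1.54 and -1.62 in the liver libraries, -0.33, -0.80 and -0.52 in the lungs and -0.80, -0.57 and -0.76 in the pancreas. The liver libraries lay below all 6 others, with a mean difference of -0.95. For Runx2 the ratio was -5.51 in both liver libraries, -4.12, -5.00 and -3.75 in the lungs and -2.80, -2.56 and -2.39 in the pancreas. The liver again lay below all others, by -2.07, with the lungs in turn below the pancreas. For Runx3 the liver ratios, -1.99 and -3.02, fell within those of the lungs, -1.21, -4.07 and -1.96, with a difference of -0.96.

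With Smad4 restored, the liver minus others difference was -0.69 for Runx1, where 2 of 2 liver libraries lay below all 6 others, -1.62 for Runx2 (-0.71 without Liv-Smad4ON replicate 2) and -0.55 for Runx3. For Runx2 the Liv-Smad4ON library at -3.79 lay within the range of Lung-Smad4ON (-4.00 to -3.25). For Runx3 the Liv-Smad4ON libraries (-1.69 and -2.28) lay within that of Lung-Smad4ON (-2.58 to -1.62). The ratios were chosen after the promoter values had been seen and are a description, with no test.

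**Figure D2:**
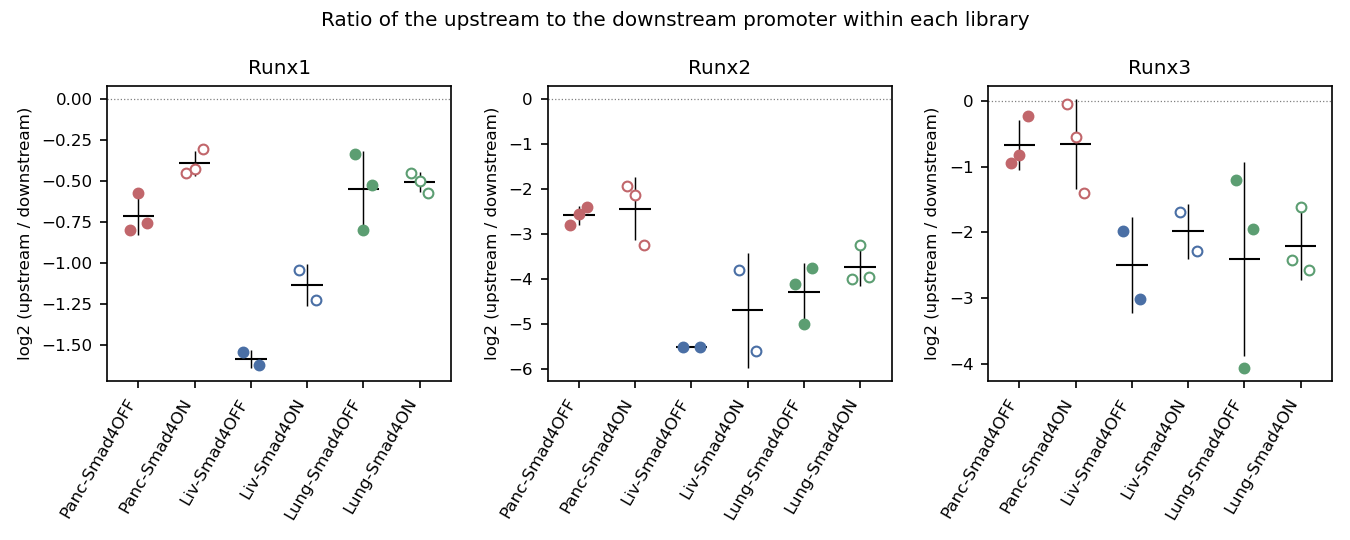
Log2 ratio of upstream to downstream promoter counts within each library (y axis) for Runx1, Runx2 and Runx3 in the 6 groups (x axis), with 1 point per library, the mean as a line and 1 SD as a bar. For Runx1 the liver points lie between -1.62 and -1.04, below every lung and pancreas point, and for Runx3 lung and liver points overlap.

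Most member peaks lie outside promoters. Of the Runx1 peaks 35 were intronic, 16 were intergenic and 1 overlapped an exon, of the Runx2 peaks 20 were intronic, 1 overlapped an exon and 2 lay within the neighbouring gene Supt3, 18 of the Runx3 peaks were intergenic, and 5 of the Cbfb peaks were intergenic. Members were wider than all peaks (median 744 against 588 bp), more accessible (median normalised count 109 against 57.5) and less often at a promoter (6.25% against 10.8%).

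Between liver and lungs with Smad4 off, 57 member peaks were lower in the liver and 3 were higher, where 49.7% of all nuclear peaks were called, 26.8% lower and 22.9% higher. All called peaks of Runx2 (12 of 25), Runx3 (17 of 25) and Cbfb (2 of 8) were lower. The median log2 fold change was -0.85 over the members, -1.35 over the Runx3 peaks and 0.00 over all peaks. The share of members called, 53.6%, was near the background.

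By p, the clearest peak at Runx1 was the intronic one 37.3 kb inside the gene from the upstream start (sequence above). It held 77.8 and 55.7 normalised counts in Liv-Smad4OFF, 347, 226 and 437 in Lung-Smad4OFF and 344, 408 and 389 in Panc-Smad4OFF. The liver libraries were far below all others (-2.29 ± 0.24 against the lungs, adjusted p = 1.74e-05), and lungs against pancreas gave -0.22 ± 0.21. The intergenic peak 80.4 kb before the upstream promoter held 264 and 298 in the liver against 604, 549 and 624 in the lungs (-1.07 ± 0.14, adjusted p = 5.85e-05). An intronic peak 42.9 kb before the downstream promoter (chr16:92739983-92740393) held 17.3 and 8.36 against 135, 83.7 and 117 (-3.08 ± 0.43, adjusted p = 8.56e-05). These peaks were picked among called peaks whose liver and lung samples did not overlap, so that separation is not a result.

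The 3 member peaks that were higher in the liver than in the lungs were all at Runx1. The peak 50.3 kb beyond the downstream promoter (chr16:92644487-92647168) held 613 and 943 in Liv-Smad4OFF and 606, 375 and 346 in Lung-Smad4OFF (0.83 ± 0.32, adjusted p = 0.0425), so 1 lung library nearly reached the liver range. The peak 33.8 kb beyond that promoter held 183 and 255 against 134, 142 and 127 (0.68 ± 0.28, adjusted p = 0.0578). The peak 63.9 kb beyond the upstream promoter held 4.94 and 8.36 against 1.84, 1.09 and 2.58 (1.43 ± 0.56, adjusted p = 0.0464). Without Liv-Smad4OFF replicate 2 none of the 3 was called (0.52, 0.44 and 1.10), nor were the first 2 without Lung-Smad4OFF replicate 3 (0.67 and 0.64), the first with quantile normalisation (0.60), and the third without Lung-Smad4OFF replicate 2 (1.22) or with a pseudocount of 10 (0.49). That last peak was open mainly in the pancreas, at 21.4, 40.2 and 69.5, where lungs against pancreas gave -3.86 ± 0.51 (adjusted p = 0.000412).

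The Runx1 calls were unevenly placed along the gene. Between the promoters, 12 of 17 peaks were lower in the liver than in the lungs and 1 was higher, with a median of -2.04. Over all nuclear peaks, 26.8% were lower and 22.9% higher in that comparison. Before the upstream promoter 10 of 16 were lower and none higher (median -1.27). Beyond the downstream promoter, in the part of the gene that both transcripts share, 3 of 19 were lower and 2 higher (median 0.05). Against the pancreas, 16 of the 17 peaks between the promoters were lower in the liver, where 32.3% of all peaks were. At Runx2, in contrast, 11 of the 20 peaks beyond the downstream promoter were lower in the liver than in the lungs, and at Runx3 10 of 14 before the upstream promoter and 4 of 7 beyond the downstream one. This division of the loci was made after the values had been seen, and no test was run on it.

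**Figure D3:**
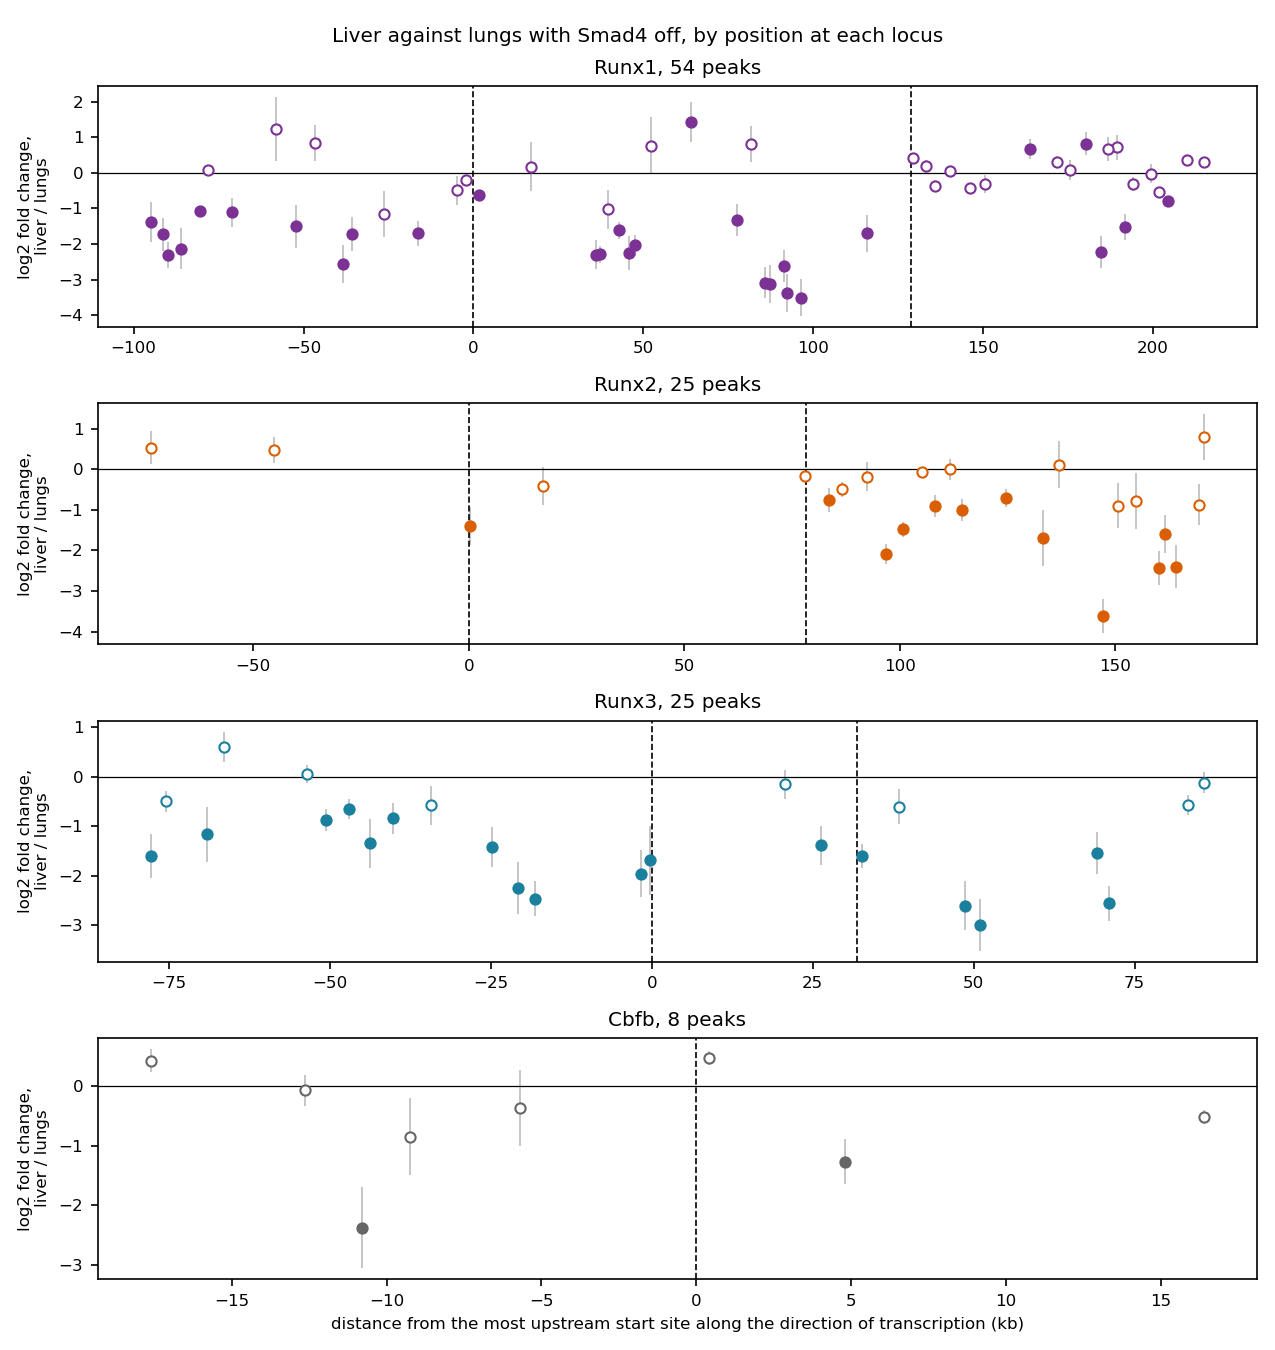
Log2 fold change of liver against lungs with Smad4 off (y axis, points, with SE as bars) for every member peak against its distance in kb from the most upstream start site along the direction of transcription (x axis), 1 panel per gene. Filled points were called, open points were not, and dashed lines mark the promoters. At Runx1 the filled points crowd below 0 before and between the promoters, while 19 peaks beyond the downstream promoter scatter around 0.05.

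At Runx2, the intronic peak 68.0 kb beyond the downstream promoter had the largest fold. It held 1.23 and 2.79 in Liv-Smad4OFF, 37.7, 20.6 and 53.4 in Lung-Smad4OFF and 45.3, 53.6 and 74.1 in Panc-Smad4OFF. The liver values stand for 3 reads in all against 122 in the lungs, a level 19.6 times lower with a counting interval (95%, exact) of 6.56 to 96.5, and limma gave an adjusted p of 3.06e-05. The peak 17.6 kb beyond the same promoter held 126 and 160.2 in Liv-Smad4OFF, 806, 443 and 632 in Lung-Smad4OFF and 606, 579 and 647 in Panc-Smad4OFF. The liver libraries lay below all others, by -2.09 ± 0.25 against the lungs (adjusted p = 3.64e-05). A peak 21.6 kb beyond it (chr17:44713026-44715006) was also lower, at 193 and 198 against 646, 435 and 574 (-1.47 ± 0.19, adjusted p = 4.63e-05).

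At Runx3, the intergenic peak 39.1 kb beyond the downstream promoter (chr4:135191115-135192127) held 62.9 and 69.7 in Liv-Smad4OFF, 458, 291 and 462 in Lung-Smad4OFF and 408, 353 and 197 in Panc-Smad4OFF. The peak 18.1 kb before the upstream promoter (chr4:135101893-135103192) held 62.9 and 62.7, 454, 259 and 373, and 312, 322 and 212. At both, the 2 liver libraries agreed closely and lay below all 6 others, by -2.56 ± 0.35 (adjusted p = 8.56e-05) and -2.47 ± 0.35 (adjusted p = 0.000105) against the lungs.

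Cbfb had weaker peaks around its promoter. The peak 10.8 kb before it held 2.47 and 6.97 in Liv-Smad4OFF and 73.6, 18.5 and 12.9 in Lung-Smad4OFF (-2.37 ± 0.68, adjusted p = 0.00963), with lung library 1 well above the other two, and was not called without Liv-Smad4OFF replicate 1 (-1.77). The intronic peak 4.5 kb beyond the promoter held 17.3 and 22.3 against 69.0, 47.8 and 35.3 (-1.27 ± 0.38, adjusted p = 0.0113). These peaks too were picked among those whose liver and lung samples did not overlap.

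Against the pancreas with Smad4 off, 69 member peaks were lower in the liver and 6 were higher, where 58.5% of all peaks were called, 32.3% lower and 26.2% higher. By gene, 32 Runx1, 15 Runx2, 17 Runx3 and 5 Cbfb peaks were lower, and the member median was -1.11 beside -0.05 over all peaks. The peaks of smallest p included the Runx1 peak at 37.3 kb (-2.51 ± 0.24, adjusted p = 5.5e-06), the Runx2 peak at 68.0 kb, with 3 reads against 193, and, at Cbfb, an intronic peak 16.1 kb beyond the promoter (chr8:105186116-105188052). The last held 455 and 444 in the liver against 788, 821 and 949 in the pancreas (-0.92 ± 0.12, adjusted p = 3.62e-05, and -0.51, under the fold threshold, after GC correction). In the other direction, the Cbfb peak 17.6 kb before the promoter held 255 and 268 against 183, 153 and 139.8, a difference of 0.73 ± 0.19 (adjusted p = 0.0044, and 0.48 after GC correction). The Runx1 peak at 33.8 kb was higher by 1.03 ± 0.28 (adjusted p = 0.00561). Weaker calls were a Runx2 peak within Supt3, 73.8 kb before the upstream promoter (0.93 ± 0.41, adjusted p = 0.0591), lost without Liv-Smad4OFF replicate 1 (0.39) or Panc-Smad4OFF replicate 2 (0.69), and a Runx3 peak 66.4 kb before its upstream promoter (0.61 ± 0.30, adjusted p = 0.0925), lost without Panc-Smad4OFF replicate 3 (0.36), with edgeR (0.48) and under most other alternatives.

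Lungs and pancreas differed at fewer member peaks. With Smad4 off, 16 were lower in the lungs and 3 higher, where 17.3% of all peaks were called, 10.7% lower and 6.59% higher, and the member median was -0.05 beside 0.03. Of the 16, 10 were at Runx1, 3 at Runx2, 1 at Runx3 and 2 at Cbfb. The intergenic peak 5.7 kb before Cbfb (chr8:105164155-105165801) held 83.8, 18.5 and 52.6 in the lungs against 233, 267 and 450.1 in the pancreas (-2.77 ± 0.57, adjusted p = 0.0053), and it was as low in the liver, at 38.3 and 29.3. The Runx2 peak 57.7 kb beyond the downstream promoter held 22.1, 7.61 and 6.89 against 66.6, 76.8 and 106 (-2.83 ± 0.52, adjusted p = 0.00263). The Runx1 peak 4.7 kb before the upstream promoter was higher in the lungs, at 63.5, 83.7 and 60.3 against 41.0, 25.9 and 23.2 (1.21 ± 0.36, adjusted p = 0.0399), and was not called without Panc-Smad4OFF replicate 2 (1.12) or 3 (1.05) or Lung-Smad4OFF replicate 2 (1.06). Without Panc-Smad4OFF replicate 2 or 3 or Lung-Smad4OFF replicate 2 the 19 called members became 11, 10 and 12. The shares of all peaks called in those fits are not given, so these losses are not set against a background. The 3 comparisons of organs share their samples pairwise, so their values are set side by side and are not independent of each other.

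With Smad4 restored, most called members were lower in the liver than in the other organs. Against the lungs 38 were lower and 5 higher, where 35.8% of all peaks were called, 18.2% lower and 17.6% higher, and all 5 higher peaks were at Runx1. Fewer members were called without Liv-Smad4ON replicate 2, a fit that leaves 1 liver library in that state. The share of all peaks called in it is not given, so the loss is not particular to these loci. Against the pancreas 64 were lower and 6 higher, where 59.4% of all peaks were called, 32.2% lower and 27.1% higher. The upstream promoter of Runx2 was again lower in the liver than in the pancreas (-2.62 ± 0.47, adjusted p = 0.000294), as was the downstream promoter of Runx3 (-0.98 ± 0.24, adjusted p = 0.00287). Without Liv-Smad4ON replicate 2 they were -1.73 and -0.58, the second no longer called. Against the lungs these promoters gave -1.23 ± 0.47 (adjusted p = 0.0542) and -1.05 ± 0.24 (adjusted p = 0.00426). The upstream promoters of Runx1 (-0.41 ± 0.10, adjusted p = 0.00567) and Runx3 (-0.83 ± 0.69, adjusted p = 0.379) were not called between restored liver and lungs, but both were called lower in the liver than in the pancreas (-0.60 ± 0.10, adjusted p = 0.000167, and -2.30 ± 0.69, adjusted p = 0.00966). Between restored lungs and pancreas 26 members were lower in the lungs and 6 higher, where 27.8% of all peaks were called, 14.9% lower and 12.8% higher. Of the 6, 5 were at Runx3. Without Panc-Smad4ON replicate 1 or 2 or Lung-Smad4ON replicate 3 the 32 called members became 19, 18 and 20, again without the share of all peaks called in those fits.

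**Figure D4:**
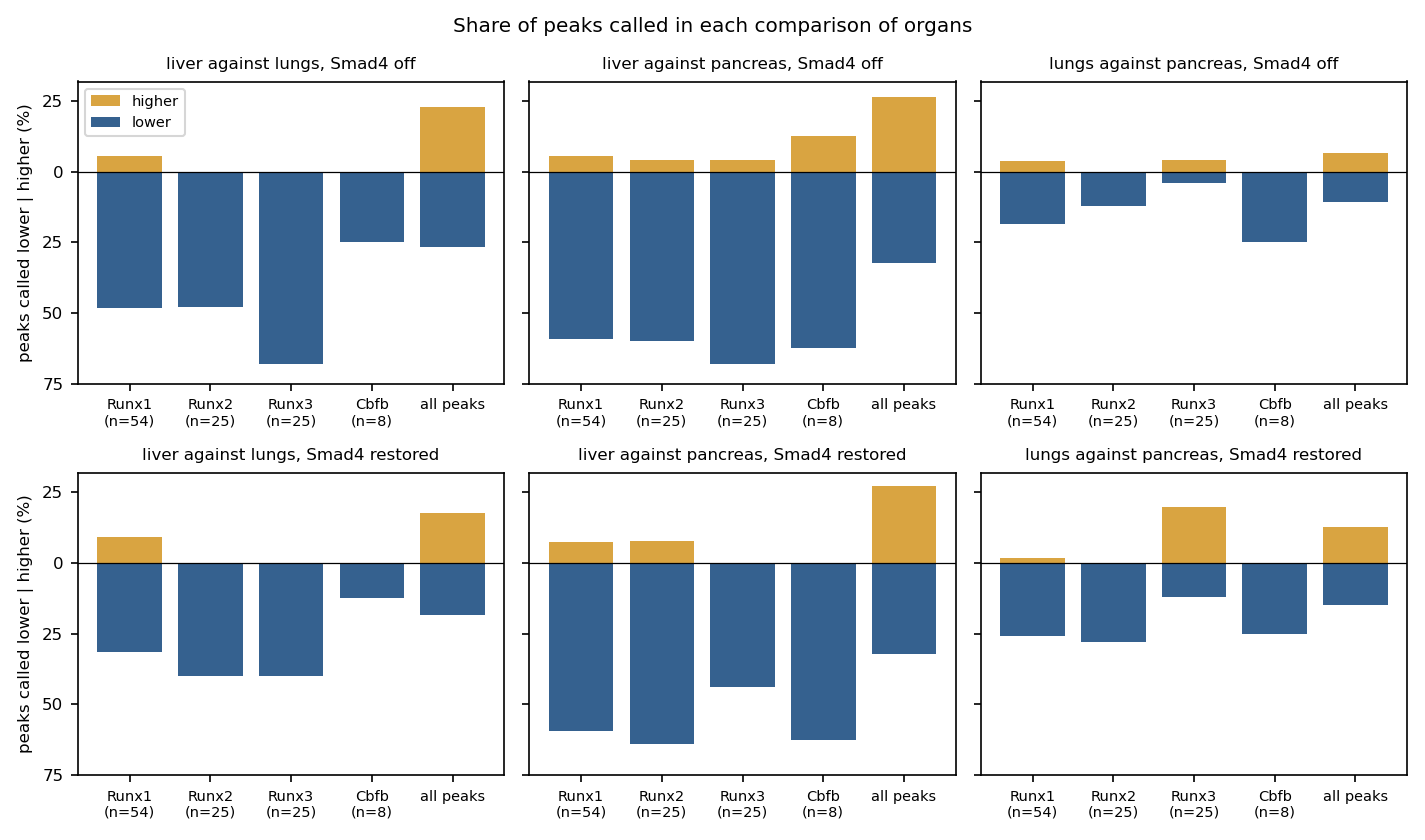
Share of peaks called higher (up) or lower (down) in the first organ named, in percent (y axis), for each gene and for all nuclear peaks (x axis), in the 6 comparisons of organs. Between liver and lungs with Smad4 off, 22.9% of all peaks are higher and 26.8% lower in the liver, while 68.0% of the Runx3 peaks and 48.1% of the Runx1 peaks are lower, and for lungs against pancreas in that state the bars of all peaks are shorter (6.59% and 10.7%).

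Restoration of Smad4 changed few member peaks. In the liver 1 of 112 was called, where 0.550% of all peaks were. In the pancreas, where 3.42% of all peaks were called, and in the lungs, where 0.00366% were, limma called 0. At an unadjusted p under 0.05 there were 20 members in the liver (17.9%, beside 12.1% of all peaks), 15 in the pancreas (13.4% beside 16.9%) and 9 in the lungs (8.04% beside 7.11%). edgeR called 0 members in each organ, and DESeq2 called 3 in the liver, 1 in the pancreas and 1 in the lungs. These counts stand without the share of all peaks that each method called, and show only how calls depend on the method. At the promoters limma and edgeR called no peak in any organ.

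The called peak was the Runx2 intronic peak at 68.0 kb, the one with 3 reads in Liv-Smad4OFF. It rose from 1.23 and 2.79 to 14.0 and 10.2 normalised counts in Liv-Smad4ON, with an adjusted limma p of 0.077. The 22 reads after restoration against 3 before gave a ratio of 6.08 with a 95% counting interval of 1.83 to 31.7. The restored liver values stayed below those of Lung-Smad4ON, 44.9, 57.5 and 32.7, and of Panc-Smad4ON, 112, 89.1 and 74.3. The call was lost with edgeR, with DESeq2, with a pseudocount of 10 and when any of 10 of the 16 libraries was left out.

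Averaged over the 3 organs, 4 members were called, all higher after restoration, where 6.62% of all peaks were called, 3.61% higher. The 4 were the Runx1 peaks 47.6 kb (chr16:92777797-92779202, 0.81 ± 0.16, adjusted p = 0.012) and 37.3 kb (0.68 ± 0.13, adjusted p = 0.012) beyond the upstream promoter, the Runx2 peak at 68.0 kb (1.05 ± 0.24, adjusted p = 0.0206) and a Runx1 peak 32.5 kb before the downstream promoter (0.95 ± 0.29, adjusted p = 0.0621), with 1 read in Liv-Smad4OFF. The Runx1 peak at 47.6 kb went from 67.9 and 55.7 to 192 and 123 in the liver, from 422, 554 and 489 to 793, 739 and 592 in the pancreas, and from 328, 159 and 324 to 430.1, 419.8 and 321 in the lungs. Off and restored samples did not overlap in the liver or the pancreas but did in the lungs. The peak at 37.3 kb went from 77.8 and 55.7 to 147 and 127 in the liver, from 344, 408 and 389 to 617, 483 and 557 in the pancreas, and from 347, 226 and 437 to 426, 518 and 411 in the lungs, with the same overlap. With the replicate block for the lungs 7 were called, and without Lung-Smad4OFF replicate 1 the 4 became 10. More were also called without Liv-Smad4OFF replicate 2 or Liv-Smad4ON replicate 2, each of which leaves 1 liver library in its state. The shares of all peaks called in these fits are not given.

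In the liver, 45 of 54 Runx1, 17 of 25 Runx2, 20 of 25 Runx3 and 4 of 8 Cbfb peaks had a fold change above 0 on restoration. The medians were 0.43 at Runx1, 0.29 at Runx2, 0.39 at Runx3 and -0.04 at Cbfb, beside 0.02 over all peaks. The share of all peaks above 0 is not given. Peaks of a locus come from the same libraries and are not replicates, and only the Runx2 peak named above was called. The Liv-Smad4OFF libraries are the baseline here and also the liver side of the comparisons with Smad4 off. A rise on restoration is therefore not independent of the lower liver values there. In the pancreas the medians were 0.23 at Runx1, 0.21 at Runx2 and -0.22 at Runx3, beside 0.04, and in the lungs they lay between 0.02 and 0.08. Whether restoration differed between organs was tested by the interaction terms, and limma called 0 members and 0 of all peaks in each of the 3. At an unadjusted p under 0.05 there were 7 members for liver minus lungs (6.25%, beside 5.25% of all peaks), 4 for liver minus pancreas (3.57% beside 3.95%) and 7 for lungs minus pancreas (6.25% beside 10.96%). edgeR also called 0 in each, and DESeq2 called 1 for lungs minus pancreas, as did limma with a replicate block for the lungs. Deviations of same-numbered lung libraries correlated at 0.491, 0.124 and 0.214, and differently numbered pairs were not computed as a reference.

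**Figure D5:**
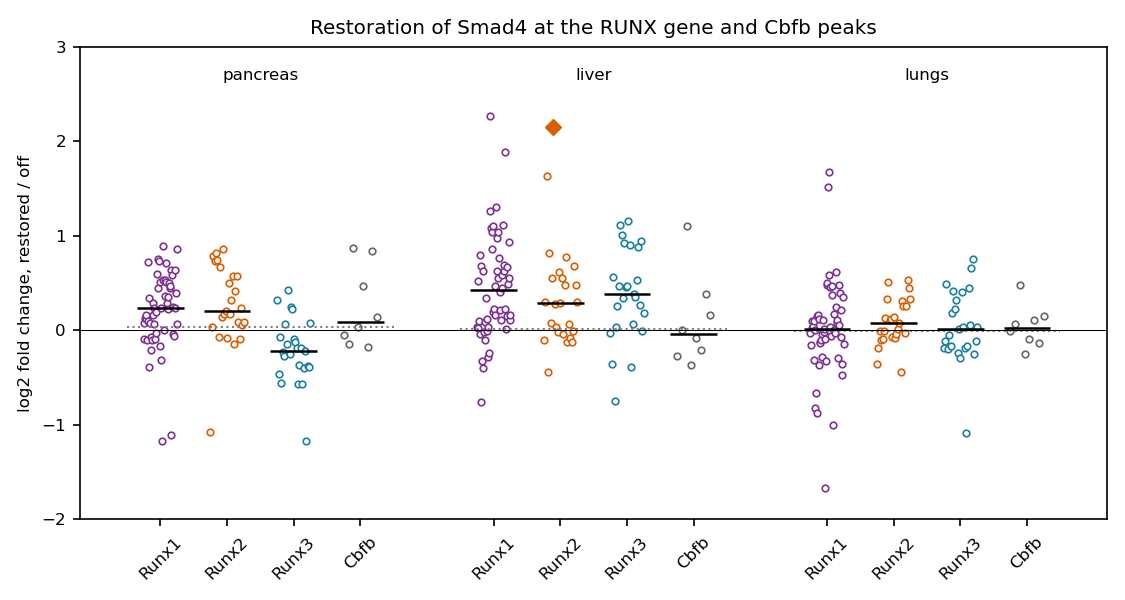
Log2 fold change on Smad4 restoration (y axis) for each member peak, grouped by gene (x axis) and organ, with the median of each gene as a line and the median of all nuclear peaks as a dotted line. The single filled diamond is the called Runx2 peak in the liver, and the median of the Runx3 peaks is -0.22 in the pancreas and 0.39 in the liver, a difference that no single peak showed past the threshold.

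The regions around the loci did not share their direction. Over the other peaks within 2 Mb, the median log2 fold change of liver against lungs with Smad4 off was 0.32 around Runx1 (387 peaks), 0.26 around Runx2 (447), 0.35 around Runx3 (527) and 0.38 around Cbfb (374). The locus medians were -0.70, -0.78, -1.35 and -0.45. Summed over all of its peaks, which weights the strongest, Runx1 differed by -0.14, Runx2 by -0.47, Runx3 by -0.97 and Cbfb by 0.17 (log2 ratio of group means).

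In the central 200 bases, searched on both strands, TGTGGT stood in 29 of 112 member peaks (25.9%) and in 19.8% of all peaks. Among the 57 members lower in the liver than in the lungs it stood in 20 (35.1%), and among the other 55 in 9 (16.4%). Over all peaks the shares were 25.1% of the lower, 15.4% of the higher and 19.1% of the rest. The AP-1 letters TGANTCA stood in 38.6% of the lower members and 18.2% of the others, and in 44.9% of all lower peaks. GGGNGTGG, the core of KLF sites, stood in 5.36% of members beside 7.69% of all peaks, TGTTTAC (FOX) in 2.68% beside 4.41%, and GTCTAGAC (SMAD) in 0 beside 0.234%.

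Genes that act with or downstream of RUNX proteins were described by the same calls. Over 12 genes of cofactors and regulators (154 peaks), 45 peaks (29.2%) were lower and 35 (22.7%) higher in the liver than in the lungs with Smad4 off, near the background of 26.8% and 22.9%. The genes named from these lists were chosen after their values were seen. Hipk2, a kinase that phosphorylates RUNX proteins, had 14 of 20 peaks lower and 1 higher, and Tle1, a Groucho corepressor, 9 of 15 lower and 0 higher, although their start-site peaks were not called (0.19 and 0.36). In the other direction, Ep300, an acetyltransferase, had 5 of 9 peaks higher and 1 lower, and Cbfa2t3, an ETO-family corepressor, and Kat6a, another acetyltransferase, had 5 of 11 and 5 of 13 higher and 0 lower. Over 12 genes known as RUNX targets (82 peaks), 40 (48.8%) were lower and 10 (12.2%) higher, with a median of -0.70. Mmp13, a collagenase, had 9 of 10 peaks lower, its start-site peak included (-1.65), and Spp1, which encodes osteopontin, 10 of 17. The start-site peak of Sp7, a bone factor that acts after RUNX2, was lower (-0.91), and that of Cdkn1a, a cell-cycle inhibitor, was higher (0.65), at 4262 ± 114 (SD) in Liv-Smad4OFF beside 2727 ± 188 in Lung-Smad4OFF. Csf1r and Spi1 are in both this list and the leukocyte markers.

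By Pearson's r of log2 counts over the 16 libraries, which share organ, state and depth, the start-site peaks most like the upstream promoter of Runx1 were those of Crct1 (0.961), Fxyd5 and Wnt7b, among 14566 genes. For the downstream promoter of Runx1 they were Maml3 (0.975), Spry2 and Hist1h1c. For the upstream promoter of Runx2 they were Lsp1 (0.980), Mxra8 and Layn, and for its downstream promoter Unc13a (0.889), Spp1 and Map1b. For Runx3 they were Olfr550 (0.953), Gfpt2 and Otos upstream and Ifitm1 (0.952), Lgr5 and Ism1 downstream, and for Cbfb they were Eps15l1 (0.978), Tcf25 and Cfdp1. No gene stood in the list of more than 1 promoter.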

How the data were processed

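ATAC-seq libraries were compared across 6 groups defined by organ and Smad4 state, as the labels give them. The authors deposited 1 table of normalised read counts per peak (a signal: reads divided by DESeq2 size factors), with peaks pooled into 1 atlas, on mm10 (GRCm38). Their processing notes name FastQC 0.11.5, Trim Galore, cutadapt, Bowtie2, MACS2, featureCounts, DESeq2 and bedtools. How low peaks were filtered, and whether fragments were shifted for Tn5, is not given in the sources used here. In every library 100% of values were whole multiples of 1 read (tolerance 0.1 read), so reads were recovered for count tests. Mitochondrial peaks were left out, at 1.43 to 3.56% of signal.

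log2(normalised count + 1) was fitted with limma 3.58.1 (trend and robust, R 4.3.3) over 136630 nuclear peaks and all 16 libraries, with Benjamini-Hochberg adjustment over all peaks. Members and lists were chosen with earlier results of these data known. Named peaks were the start-site peaks, the 3 called peaks of smallest p per gene and direction for liver against lungs, 1 for the other organ comparisons with Smad4 off, and 2 per direction for restoration, with non-overlapping samples for comparisons of organs. The Runx1 peak 32.5 kb before the downstream promoter, the divisions of the loci and the promoter ratios were added after values were seen. Alternatives were a pseudocount of 10, filters, TMM and quantile normalisation, a GC correction, edgeR 4.0.16, DESeq2 1.42.0, replicate blocks and leaving out libraries. The fit was tested on simulated data. Sequences came from the GRCm38.p6 genome and RefSeq tables. Intervals for reads cover counting error only. Same-numbered libraries were checked for pairing: the correlations of their deviations from group means were 0.491, 0.124 and 0.214 in the lungs, -0.33, 0.03 and -0.33 in the pancreas and 0.08 in the liver, so that a block was used as an alternative only, in the lungs alone or in all organs. An allele of the donor tumours and the name of a marker gene are not reported here.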

Additional observations from a re-analysis of the deposited data

How the results depend on the processing

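Counts of called members stayed within 1.5 times those reported except as follows. Counts under alternatives, here and above, stand without the share of all peaks called under each, so they are not set against a background. Between liver and lungs with Smad4 off, members within 50 kb gave 39 of 70. Restoration in the liver gave 0 with a pseudocount of 10, quantile normalisation, GC correction, the replicate block with and without GC correction, and edgeR, 2 with a mean count of at least 20, 4 with TMM and 3 with DESeq2. In the pancreas quantile normalisation and DESeq2 gave 1 each, and in the lungs DESeq2 gave 1. Averaged over organs a pseudocount of 10 gave 2 and a replicate block in the lungs only gave 7. For the interaction of lungs minus pancreas that block and DESeq2 gave 1 each. With the replicate block in all organs liver against lungs, liver against pancreas and lungs against pancreas gave 62, 72 and 20 members with Smad4 off and 42, 71 and 32 with Smad4 restored, with 5 for the averaged restoration. Leaving out 1 library at a time gave 49 to 66, 67 to 77 and 10 to 25 members for the same comparisons with Smad4 off, and 17 to 51, 48 to 75 and 18 to 36 with Smad4 restored. It gave 0 to 2 for restoration in the pancreas (2 without Panc-Smad4ON replicate 3), 0 to 5 in the liver (5 without Lung-Smad4OFF replicate 2), 3 to 10 averaged, and 0 to 1 for the interaction of lungs minus pancreas (1 without Lung-Smad4OFF replicate 2). Signs turned with quantile normalisation at the downstream promoter of Runx1 (-0.011 against the lungs and -0.089 against the pancreas), at Cbfb for liver against pancreas (-0.092) and at the downstream promoter of Runx3 for lungs against pancreas (-0.0071). They also turned on leaving out libraries where the difference was not called: at the downstream promoter of Runx2, the ranges were -0.35 to 0.020 for liver against lungs and -0.32 to 0.050 for liver against pancreas (highest without Liv-Smad4OFF replicate 2) and -0.014 to 0.085 for lungs against pancreas, and at that of Runx3 -0.13 to 0.20 for lungs against pancreas. Apart from these, the named values kept their sign under the alternatives run. The cause of these shifts was not tested. The limits are the 2 liver libraries per state, their lower depth at weak peaks, and the normalisation, with which the sign of small promoter differences turned.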
